A study of Mus musculus with 6 samples.

Results

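Potassium channels and HCN channels set the resting potential, the firing threshold and the firing pattern of sensory neurons. The genes described here are all those whose symbol is Kcn followed by letters and a number, or Hcn and a digit, with at least 10 reads over the 6 count tables. The rule kept 91 of the 38926 genes listed, and 6 further matching symbols fell under 10 reads. Of these, Kcne2 had 6 reads, Kcnv2 3, Kcnk15 2, Kcnj1 and Kcnmb3 1 each, and Kcne1 0, whereas the members just over the limit were Kcnh4 with 14 reads, Kcna10 with 17 and Kcnk7 with 21. The 91 members carry 21 different name prefixes, and all 91 are annotated as protein coding in GENCODE M21 for GRCm38.

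Voltage-gated potassium channels are tetramers of pore-forming subunits (Kcna, Kcnb, Kcnc, Kcnd, Kcnh and Kcnq) that open on depolarisation, and their surface expression and kinetics are shaped by auxiliary proteins (Kcnab, Kcne, Kcnip) and by silent subunits (Kcnf, Kcng, Kcns, Kcnv) that form no channel alone. Kcnma1, the Kcnn genes and the Kcnt genes encode channels gated by calcium or sodium, the Kcnj genes inward rectifiers, and the Kcnk genes the leak channels that hold the resting potential. HCN channels open on hyperpolarisation and pass a depolarising cation current. In the dorsal root ganglion several of these genes mark neuron classes, and potassium channel genes are known to fall after nerve injury.

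RNA was sequenced from dorsal root ganglia of lumbar levels 3 to 5, taken on the treated side of female C57BL/6 mice aged 8 to 10 weeks. The 3 vincristine libraries came from mice given a cumulative 40 µg of vincristine, a tubulin-binding chemotherapy drug, into the paw, and the 3 vehicle libraries from mice given vehicle. This dose comes from the sample labels. The count tables are named for 10 µg, and the relation between these amounts is not stated. All animals were of the same strain and sex and are labelled WT (wild type) in the sample titles, and each library pooled 4 animals. The ganglion is a mixture of neurons, glia, vessel and immune cells, so fewer cells of a type and less RNA per cell cannot be told apart.

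Reads in genes numbered 12374331 to 26346304 in the vincristine libraries and 17967934 to 19917055 in the vehicle libraries. Vincristine replicate 1 stood apart from the other 5 libraries: it was the shallowest, 24.8% of its alignments lay outside annotated genes against 14.8% to 17.0% elsewhere, and it lay farthest out on a first principal component that held 56.4% of the variance. All 18 pan-neuronal markers were detected, and their summed level, in CPM (counts normalised to library size, scaled by TMM), was 5020.4, 10367 and 12632 CPM in the vincristine libraries and 9935, 13024 and 12881 CPM in the vehicle libraries. The 10 neutrophil markers summed to 7470.0, 2423 and 2782 CPM in the vincristine libraries and 1357, 777 and 975 CPM in the vehicle libraries, and the 7 matched erythroid markers to 2249, 977 and 1121 CPM in the vincristine libraries and 443, 363 and 438 CPM in the vehicle libraries. The 9 injured-neuron markers, Atf3 and Sprr1a among them, summed to 460.2, 705 and 955 CPM in the vincristine libraries and 196, 196 and 203 CPM in the vehicle libraries, and 5 of these 9 were called higher. The sum of the neuronal markers was lowest and the sums of the neutrophil and erythroid markers were highest in vincristine replicate 1. Each log2 fold change given for a channel gene is also given without this library.

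Measured per kilobase of exon, which allows levels of different genes to be compared, the channel repertoire of the ganglion was led by Kcna1, a low-threshold potassium channel subunit of myelinated axons, and by Kcnab2, a cytoplasmic beta subunit that binds Kcna channels. Kcna1 averaged 103 ± 19.5 CPM per kb in vincristine libraries and 101 ± 10.2 in vehicle libraries (SD, n = 3 each), and Kcnab2 averaged 78.5 ± 34.7 CPM per kb in vincristine libraries and 110.1 ± 15.8 in vehicle libraries. The calcium-sensing Kcnip subunits, which bind Kcnd channels, came next. Kcnip4 averaged 32.3 ± 15.4 CPM per kb in vincristine libraries and 45.6 ± 6.49 in vehicle libraries, and Kcnip3, also known as the transcriptional repressor DREAM, averaged 27.1 ± 11.9 CPM per kb in vincristine libraries and 40.5 ± 5.89 in vehicle libraries. Kcnk1, a leak channel of the TWIK type, averaged 20.6 ± 2.55 CPM per kb in vincristine libraries and 25.9 ± 1.71 in vehicle libraries. The lowest member of the Kcnip group was Kcnip1. Below Kcnip3 in the order by the mean of all libraries came Kcnip2, Kcnk1 and Kcna6. Kcnip2 averaged 16.8 ± 8.09 CPM per kb in vincristine libraries and 29.9 ± 2.68 in vehicle libraries. The ranges of these 3 genes overlapped in the vincristine libraries. In the vehicle libraries Kcnip2 lay above Kcnk1 and Kcna6, whose ranges overlapped.

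As a share of the summed CPM per kb of all 91 members, the 8 Kcna genes held 25.3%, 22.5% and 22.8% in the vincristine libraries, against 18.6%, 18.7% and 18.7% in the vehicle libraries. The 2 groups did not overlap for this share. The 4 Kcnip genes held 9.04%, 14.4% and 14.3% with vincristine and 16.1%, 16.2% and 15.0% with vehicle, again without overlap. The 3 Kcns genes held 2.89 ± 0.28% with vincristine and 3.63 ± 0.10% with vehicle (SD, n = 3 each). Shares are relative, so a larger Kcna share goes with smaller shares elsewhere, and the summed Kcna level itself was 535, 795 and 863 CPM in the vincristine libraries and 664, 847 and 776 CPM in the vehicle libraries. No test was made of these shares.

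**Figure D1:**
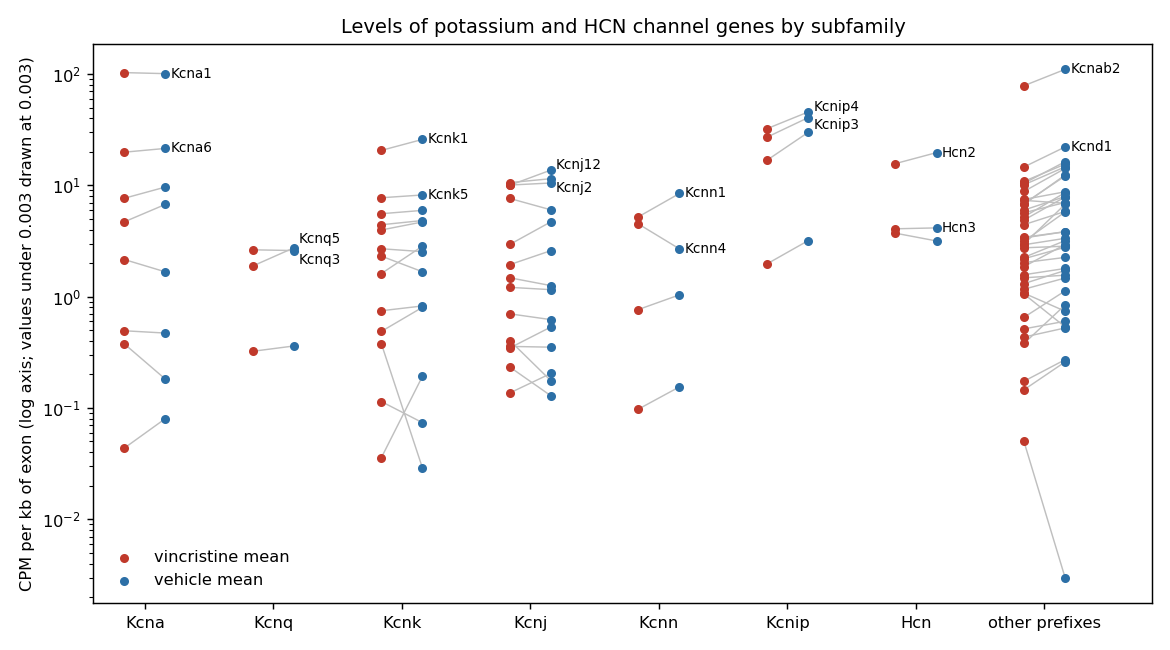
Mean level of each of 87 of the 91 members in vincristine (left, red) and vehicle libraries (right, blue), in CPM per kb of exon on a log axis, by subfamily; lines join the means of a gene and the 2 most abundant of those shown in each group are named. Kcna1 and Kcnab2 stand at the top in both groups, and lines of the Kcnip group all slope towards higher vehicle means.

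Of the 91 members, 87 passed the filter on low counts and were tested in a fit of all 16706 genes with edgeR's quasi-likelihood test. Of these 87, 82 reached the count minimum in all 6 libraries, Kcnj5 and Kcnk16 reached it in every vincristine library but not in every vehicle library, Kcng1 and Kcnh3 the reverse, and Kcna7 in neither group throughout. Kcnj5, Kcnk16, Kcng1 and Kcnh3 passed only through the group in which their values are higher. They add no independent support to the counts of members below. With p-values adjusted over all genes, 0 of 87 members passed the threshold of 0.05, where 60 genes (0.359%) did: 49 (0.293%) higher and 11 (0.0658%) lower with vincristine. DESeq2 on the same genes called 3 members, Kcnk16 and Kcnn4 higher and Kcnmb1 lower, where it called 569 genes (3.41%). The call of Kcnk16 is no independent support, given its path through the filter. At an unadjusted edgeR p under 0.05, 9 members had lower values with vincristine and 3 had higher values, that is 10.3% and 3.45% of the 87, beside 3.27% and 8.1% of all genes (11.4% in either direction).

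The direction of the estimates was uneven. A negative log2 fold change, meaning a lower value with vincristine, was estimated for 67 of 87 members, beside 50.7% of all genes, and the median over members was -0.30 against -0.0033 for all genes. Without vincristine replicate 1, 61 of 87 were negative, beside 50.1% of all genes, and the median was -0.17. All 3 vincristine values lay below all 3 vehicle values for 15 members (17.2%), beside 9.51% of all genes, and above them for 3 members (3.45%), beside 11.5%. Counting vincristine replicates 2 and 3 only, 18 members lay below all vehicle libraries (background 13.0%) and 5 above (background 17.7%); these 5 were Hcn3, Kcna1, Kcnj6, Kcnk16 and Kcnn4. For the 18 pan-neuronal markers the median estimate was -0.37 with all libraries and -0.05 without replicate 1. The part that the amount of neuronal RNA has in the members' estimates was not tested.

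**Figure D2:**
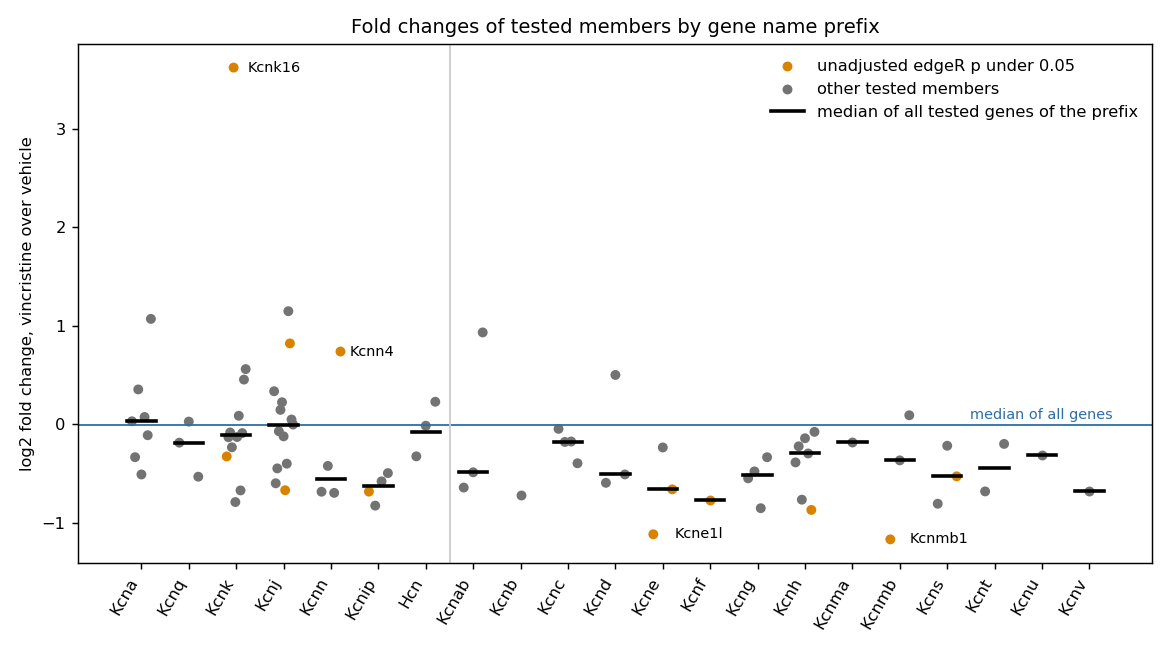
Log2 fold change, vincristine over vehicle, of 83 of the 87 tested members by gene name prefix, with black bars for the median of all tested genes of the prefix (not drawn for Kcnb), orange points for members at an unadjusted edgeR p under 0.05 and a blue line for the median of all genes. Most prefixes right of the vertical line lie below 0, while Kcna and Kcnj straddle it and Kcnk16 stands alone at 3.62.

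The 7 subfamilies differed in the median of their estimates. The Kcnip genes had the lowest, -0.63 over 4 members, all 4 negative, and the Kcnn genes followed with -0.55 over 4 members, 3 negative. The Kcnq median was -0.19 (4 of 5 negative) and the Kcnk median -0.11 (8 of 12 negative). The medians of Kcna, 0.03 over 7 members, Kcnj, -0.002 over 13, and Hcn, -0.08 over 4, lay near 0 and changed sign under other settings. Without vincristine replicate 1 the medians were -0.37 for Kcnip, -0.27 for Kcnn, -0.04 for Kcnq, -0.02 for Kcnk, 0.12 for Kcna, -0.21 for Kcnj and 0.15 for Hcn. The 38 tested members with other prefixes had a median of -0.44 with 35 negative, and -0.20 without that library. No test of a difference between subfamilies was made, and 0 members of any subfamily passed the adjusted threshold.

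Among the pore-forming voltage-gated subunits, Kcna1 was measured at 386, 532 and 559.6 CPM in the vincristine libraries, against 428, 522 and 496 CPM in the vehicle libraries. These ranges overlapped, with replicate 1 the lowest of the 6 libraries, and the log2 fold change was 0.03 (SE 0.19, adjusted p = 0.967), or 0.18 without replicate 1. Kcna6, a delayed rectifier subunit, had 64.1, 130.1 and 160.0 CPM with vincristine and 111, 146 and 126 CPM with vehicle, and replicate 1 was again the lowest. Its log2 fold change was -0.11, or 0.18 without that library. Kcna2, which partners Kcna1 beside the nodes of myelinated axons, averaged 91.2 ± 20.6 CPM in vincristine libraries and 115 ± 19.6 CPM in vehicle libraries (SD, n = 3 each) and had a log2 fold change of -0.33 ± 0.20, where ± after a log2 fold change gives its SE. The Kcna2 estimate was -0.16 without replicate 1. Kcna4, an inactivating subunit found in small-diameter sensory neurons, had 10.4, 26.6 and 31.2 CPM with vincristine and 25.1, 39.3 and 33.4 CPM with vehicle and a log2 fold change of -0.51 ± 0.38, which shrank to -0.17 without replicate 1. None of these differences exceeded the spread between libraries by the edgeR test.

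Kcna7, a subunit known from skeletal muscle, was read at 0.232, 1.62 and 0.617 CPM with vincristine and 0.280, 0.208 and 0.700 CPM with vehicle. It was highest in vincristine replicate 2 and vehicle replicate 3, the same libraries in which the 8 skeletal muscle markers were highest, at 186, 922 and 217 CPM in the vincristine libraries and 66.5, 108 and 477 CPM in the vehicle libraries. The part of muscle RNA in the Kcna7 values was not tested. Kcna3, known from lymphocytes and macrophages, was highest in vincristine replicate 1, at 5.50, 2.77 and 4.05 CPM with vincristine and 2.74, 3.39 and 3.40 CPM with vehicle. Its log2 fold change was 0.35 (SE 0.28, adjusted p = 0.670), or 0.11 without replicate 1. Macrophage markers summed to 685, 488 and 505 CPM in the vincristine libraries and 403, 352 and 396 CPM in the vehicle libraries. The 7 B cell markers went the other way, summing to 7.12, 3.50 and 4.39 CPM in the vincristine libraries and 48.1, 34.1 and 68.4 CPM in the vehicle libraries, and 6 of the 7 were called lower by edgeR. The part of these cells in the Kcna3 values was not tested.

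The delayed rectifier Kcnb2 had 36.7, 90.4 and 109.9 CPM with vincristine and 90.9, 160.3 and 140.3 CPM with vehicle and a log2 fold change of -0.72 ± 0.40, falling short of the threshold with adjusted p = 0.549 by edgeR. It was -0.38 without replicate 1. The fast-spiking subunits Kcnc4 and Kcnc1 had log2 fold changes of -0.40 ± 0.29 and -0.05 ± 0.24, or -0.13 and 0.04 without replicate 1. Of the A-type subunits, which inactivate quickly and delay firing, Kcnd1 had 33.6, 89.9 and 108 CPM with vincristine and 93.4, 146 and 112 CPM with vehicle and Kcnd3 41.9, 128 and 142 CPM with vincristine and 113, 188 and 144 CPM with vehicle. In both genes replicate 1 lay far below the other 5 libraries, and without it the log2 fold changes, -0.59 and -0.51 over all libraries, were -0.24 and -0.13. Kcnd2 behaved differently: it was 9.83, 3.39 and 3.39 CPM with vincristine and 2.97, 3.23 and 5.25 CPM with vehicle, with replicate 1 the highest, and its log2 fold change of 0.50 turned to -0.17 without it.

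Kcnh7, an ERG-type subunit of chromosome 2, had the largest negative estimate among pore-forming members above 1 CPM. It was measured at 55.7, 116 and 137 CPM in the vincristine libraries, against 131, 225 and 209 CPM in the vehicle libraries. The highest vincristine library lay just above the lowest vehicle library, and the log2 fold change was -0.87 (SE 0.35, adjusted p = 0.410), with -0.57 and adjusted p = 0.333 without replicate 1. An exon of Kcnh7 overlaps one of Gca on the opposite strand, and with the counter's strand option unstated, reads of these genes may be shared. All 7 tested Kcnh genes had negative estimates, from -0.87 to -0.08, the smallest being that of Kcnh8 (-0.05 without replicate 1) with 6.73 ± 0.271 CPM in vincristine libraries and 7.11 ± 0.736 CPM in vehicle libraries (SD, n = 3 each). Without replicate 1, 5 of the 7 were negative and 2 positive, and the Kcnh median of -0.30 became -0.05. Kcnh3, among these 7, passed the filter on low counts only through the vehicle libraries, so its sign is no independent support.

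Several Kcnq genes, Kcnq3 and Kcnq5 among them, encode subunits of the M current, a slow potassium current that limits repetitive firing. Kcnq3 had 25.5, 34.6 and 56.2 CPM with vincristine and 25.6, 50.0 and 38.9 CPM with vehicle. The groups overlapped widely, and the log2 fold change was 0.03 (SE 0.33, adjusted p = 0.985), or 0.25 without replicate 1. Kcnq5 had 8.13, 18.2 and 17.2 CPM with vincristine and 15.5, 23.7 and 24.2 CPM with vehicle and a log2 fold change of -0.53 ± 0.31, or -0.26 without replicate 1.

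The silent subunits, which modify Kcnb channels, had negative estimates in 9 of 9 tested members, with a median of -0.55 and of -0.33 without replicate 1. Kcng1, among these 9, passed the filter on low counts only through the vehicle libraries, so its sign is no independent support. Their median per library, as log2 CPM minus the vehicle mean, was -1.48, -0.43 and -0.22 in the vincristine libraries and -0.17, 0.13 and 0.02 in the vehicle libraries. Kcns3 was measured at 22.4, 34.9 and 38.8 CPM in the vincristine libraries, against 43.6, 50.5 and 44.9 CPM in the vehicle libraries, without overlap. It had a log2 fold change of -0.53 (SE 0.20, adjusted p = 0.383), an unadjusted p of 0.0332, and an estimate of -0.33 without replicate 1. Kcns1, in which variation is linked to pain sensitivity in people, also did not overlap, at 8.05, 24.3 and 23.5 CPM with vincristine and 28.6, 35.0 and 35.1 CPM with vehicle. It had a log2 fold change of -0.81 (SE 0.37, adjusted p = 0.472), or -0.46 without replicate 1. Kcnv1 had 9.76, 29.2 and 28.1 CPM with vincristine and 32.0, 40.0 and 36.2 CPM with vehicle, and Kcng3 3.56, 12.1 and 15.9 CPM with vincristine and 12.9, 25.6 and 19.5 CPM with vehicle; the Kcnv1 groups were apart and the Kcng3 groups overlapped. Their log2 fold changes were -0.68 ± 0.37 and -0.85 ± 0.49, with -0.33 and -0.46 without replicate 1. Kcnf1 had 2.40, 2.77 and 4.201 CPM with vincristine and 4.43, 7.61 and 4.15 CPM with vehicle, and its highest vincristine library lay between vehicle replicates 3 and 1 (unadjusted p = 0.0488, adjusted p = 0.435, edgeR). Its log2 fold change was -0.77, or -0.62 without replicate 1.

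Among the auxiliary subunits, all 4 Kcnip genes had lower means with vincristine. Kcnip1 was measured at 8.36, 13.9 and 14.3 CPM in the vincristine libraries, against 19.1, 19.7 and 20.4 CPM in the vehicle libraries. The vehicle libraries lay within a narrow band and every vincristine library below it, and the log2 fold change was -0.68 (SE 0.20, adjusted p = 0.278), or -0.48 with adjusted p = 0.0691 without replicate 1. Limma with sample quality weights, which counts replicate 1 less, called Kcnip1, Kcnk16 and Kcnmb1 among 476 genes (2.85%). Kcnk16 passed the filter on low counts only through the vincristine libraries, so its call is no independent support. Kcnip2, known as a partner of A-type channels in heart and brain, did not overlap either, at 25.9, 73.1 and 76.1 CPM with vincristine and 101, 114 and 96.3 CPM with vehicle, with a log2 fold change of -0.83 (SE 0.37, adjusted p = 0.458) and -0.48 (adjusted p = 0.0631) without replicate 1. Kcnip4 had 52.7, 146 and 153 CPM with vincristine and 149, 192 and 154 CPM with vehicle, and Kcnip3 47.6, 115 and 126 CPM with vincristine and 121, 163 and 147 CPM with vehicle; both groups overlapped, and without replicate 1 their log2 fold changes of -0.50 and -0.58 became -0.15 and -0.26. Exons of Kcnip4 overlap genes on the opposite strand.

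Kcnip3 and Kcnip4 also hold a match to TGANTCA, the letters searched here for the AP-1 site of Fos, Jun and related factors. Any base was accepted at N, so the pattern is wider than that site. The match is TGACTCA in Kcnip3 and TGATTCA in Kcnip4. Each match lies in a RefSeq promoter window of 250 bases before to 50 bases after a transcript start (GRCm38.p6). These genes are shown as 2 of the 4 members with a match, and a link of the motif to the Kcnip estimates was not tested. The window of Kcnip3 is chr2:127522045-127522344, minus strand, 1 of 3 windows for this gene, and that of Kcnip4 is chr5:49285610-49285909, minus strand, 1 of 2; capitals mark the motif.
Kcnip3: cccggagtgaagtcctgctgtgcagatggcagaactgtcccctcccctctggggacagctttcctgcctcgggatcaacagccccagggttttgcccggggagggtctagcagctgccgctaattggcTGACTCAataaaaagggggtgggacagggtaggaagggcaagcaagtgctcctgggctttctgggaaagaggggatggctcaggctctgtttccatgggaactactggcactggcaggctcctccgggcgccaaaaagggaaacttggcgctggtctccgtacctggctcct
Kcnip4: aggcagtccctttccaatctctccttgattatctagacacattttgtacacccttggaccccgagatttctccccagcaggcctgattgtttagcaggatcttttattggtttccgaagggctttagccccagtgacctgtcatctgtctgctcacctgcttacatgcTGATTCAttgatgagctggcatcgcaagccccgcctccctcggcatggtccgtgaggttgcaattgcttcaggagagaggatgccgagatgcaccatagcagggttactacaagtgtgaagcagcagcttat
The motif, searched on both strands, occurred in windows of 4 of the 66 members with a RefSeq window (6.06%; the others were Kcne3 and Kcnk2), beside 8.97% of 27025 genes. The cAMP response element TGACGTCA matched 0 of 66 members, beside 2.03% of genes, and TTCAGCACC, the left part of the site bound by the neuronal repressor REST, matched Kcnh6 (1.52%), beside 0.433% of genes. A match describes letters in a window and not a bound site.

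Kcnab2 was measured at 217, 520.0 and 577 CPM in the vincristine libraries, against 514, 683 and 646 CPM in the vehicle libraries. Replicate 1 lay below the vehicle range and replicates 2 and 3 lay within it, and the log2 fold change of -0.49 (SE 0.35, adjusted p = 0.649) shrank to -0.16 without it; its exons overlap those of Gm16334 on the same strand. Kcnab3 had the opposite pattern, with 5.19, 1.93 and 1.97 CPM with vincristine and 1.57, 0.938 and 2.10 CPM with vehicle and a log2 fold change of 0.93 (SE 0.49, adjusted p = 0.529), which was 0.34 without replicate 1, its highest library. Kcne1l, a small single-pass subunit, was low in every library but did not overlap between groups, at 0.542, 0.522 and 0.694 CPM in the vincristine libraries, against 1.23, 1.51 and 1.15 CPM in the vehicle libraries. Its log2 fold change was -1.12 (SE 0.28, adjusted p = 0.201), with an unadjusted p of 0.00481, and -1.07 without replicate 1, so this estimate hardly rested on that library. Kcne4, an inhibitory subunit of Kcna and Kcnq channels, had 5.03, 5.38 and 4.43 CPM with vincristine and 9.30, 5.84 and 8.30 CPM with vehicle, also without overlap, and a log2 fold change of -0.66 (SE 0.21, adjusted p = 0.314), or -0.68 without replicate 1. In both Kcne genes replicate 1 was not the lowest vincristine library.

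Among the channels gated by calcium or sodium, Kcnmb1, the beta subunit that raises the calcium sensitivity of BK channels in smooth muscle, had the most negative estimate of all 87 members. It was measured at 5.81, 15.9 and 15.7 CPM in the vincristine libraries, against 22.5, 34.1 and 28.3 CPM in the vehicle libraries. All 3 vincristine values lay below all 3 vehicle values, and the log2 fold change was -1.17 (SE 0.36, adjusted p = 0.289) by edgeR, with adjusted p = 0.0456 by DESeq2. Without replicate 1 it was -0.85 with adjusted p = 0.0604. The 8 pericyte and smooth muscle markers, as median log2 CPM minus the vehicle mean, stood at 0.35, 0.20 and -0.25 in the vincristine libraries and 0.08, -0.03 and 0.0027 in the vehicle libraries. Of these 8, 6 had positive and 2 negative estimates. On the same scale the pan-neuronal markers stood at -1.30, -0.13 and 0.06 in the vincristine libraries and -0.25, 0.15 and 0.08 in the vehicle libraries. The part of these cells in the Kcnmb1 values was not tested. Kcnmb1 lies on the plus strand of chromosome 11 (33963013 to 33973641, GRCm38) inside the span of Kcnip1 on the minus strand (33629339 to 33993152), and no exon of the one overlaps an exon of the other. The pore-forming BK subunit Kcnma1 had 19.7, 26.5 and 34.0 CPM with vincristine and 21.6, 37.5 and 32.2 CPM with vehicle with a log2 fold change of -0.18 ± 0.26, and the neuronal beta subunit Kcnmb4 20.3, 26.0 and 26.9 CPM with vincristine and 26.6, 22.5 and 19.8 CPM with vehicle with 0.09 ± 0.16. Both overlapped between groups, and without replicate 1 the estimates were -0.01 and 0.21.

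Kcnn4, the intermediate-conductance calcium-activated channel known from red cells and immune cells, had higher values with vincristine. It was measured at 29.6, 18.8 and 20.7 CPM in the vincristine libraries, against 13.9, 12.0 and 15.3 CPM in the vehicle libraries. The groups did not overlap, with replicate 1 the highest, and the log2 fold change was 0.74 (SE 0.20, adjusted p = 0.224) by edgeR, with adjusted p = 0.0491 by DESeq2 and, without replicate 1, 0.52 with adjusted p = 0.117 by edgeR. The neutrophil, erythroid and macrophage markers were highest in replicate 1 as well, with medians of 2.82, 2.55 and 0.98 on the log2 scale relative to the vehicle mean, whereas the B cell markers had medians of -2.83, -3.70 and -3.02 in the vincristine libraries and 0.02, -0.45 and 0.58 in the vehicle libraries. The part of these cells in the Kcnn4 values was not tested. The small-conductance gene Kcnn1 had the opposite pattern, at 10.7, 29.2 and 31.9 CPM with vincristine and 39.0, 41.3 and 36.1 CPM with vehicle, without overlap, with a log2 fold change of -0.68 (SE 0.36, adjusted p = 0.529) and -0.34 without replicate 1. The sodium-activated channel Kcnt1 (Slack) did not overlap either, at 45.8, 99.4 and 106 CPM with vincristine and 112, 153 and 139 CPM with vehicle. This gene had a log2 fold change of -0.68 (SE 0.31, adjusted p = 0.466), or -0.39 without replicate 1. Kcnt2 averaged 20.2 ± 5.13 CPM in vincristine libraries and 23.1 ± 0.605 CPM in vehicle libraries (SD, n = 3 each). Vincristine replicate 1 was its highest library, and replicates 2 and 3 lay below all vehicle libraries. Its log2 fold change was -0.20, or -0.38 without replicate 1. Kcnu1, known from sperm, had a log2 fold change of -0.31 ± 0.29, or -0.05 without replicate 1.

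RefSeq promoter windows (GRCm38.p6, 250 bases before to 50 after the start) are shown for Kcnk16, Kcnn4 and Kcnmb1, the 3 members that DESeq2 called. Kcnk16 lies at chr14:20269220-20269519 on the minus strand, Kcnn4 at chr7:24370013-24370312 on the plus strand and Kcnmb1 at chr11:33962763-33963062 on the plus strand; none holds the 3 motifs searched above, so no letters are in capitals.
Kcnk16: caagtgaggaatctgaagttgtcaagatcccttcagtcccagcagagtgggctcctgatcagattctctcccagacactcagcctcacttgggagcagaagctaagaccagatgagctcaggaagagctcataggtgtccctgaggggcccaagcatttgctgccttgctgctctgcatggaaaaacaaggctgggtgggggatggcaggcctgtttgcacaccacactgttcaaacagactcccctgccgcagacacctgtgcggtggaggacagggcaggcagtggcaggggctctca
Kcnn4: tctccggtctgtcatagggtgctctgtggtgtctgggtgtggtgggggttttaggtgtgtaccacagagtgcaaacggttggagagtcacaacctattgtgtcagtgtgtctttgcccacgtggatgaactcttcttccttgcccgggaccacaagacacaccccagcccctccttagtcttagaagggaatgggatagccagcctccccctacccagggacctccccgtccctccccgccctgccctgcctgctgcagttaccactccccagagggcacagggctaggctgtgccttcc
Kcnmb1: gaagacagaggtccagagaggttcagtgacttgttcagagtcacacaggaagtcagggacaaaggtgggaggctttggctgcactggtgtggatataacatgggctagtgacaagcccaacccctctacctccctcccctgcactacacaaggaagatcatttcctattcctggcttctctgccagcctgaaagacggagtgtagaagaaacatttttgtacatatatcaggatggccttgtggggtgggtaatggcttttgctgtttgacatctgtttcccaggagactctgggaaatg

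**Figure D3:**
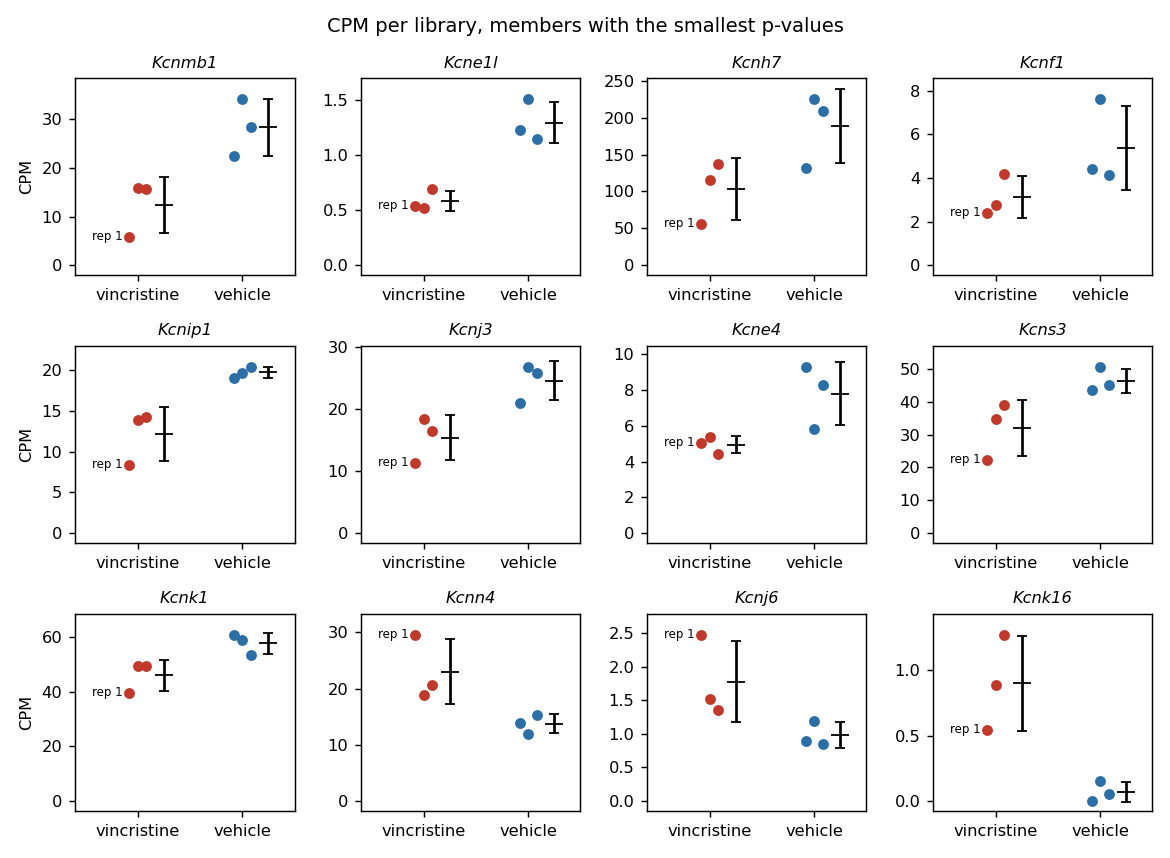
CPM in each library of the 12 members at an unadjusted edgeR p under 0.05, vincristine in red left of vehicle in blue, with vincristine replicate 1 marked and bars for mean ± SD (n = 3 each). The groups are apart in every panel but those of Kcnh7 and Kcnf1, and replicate 1 is the lowest vincristine point in all the lower members except Kcne1l and Kcne4.

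The leak channel gene Kcnk16, of the TALK type and known from pancreatic beta cells, had the largest estimate of all members, at a low count. It had 7, 17 and 33 reads in the vincristine libraries and 0, 3 and 1 reads in the vehicle libraries. All vincristine libraries lay above all vehicle libraries, and the ratio of reads scaled by library size was 14.1 (exact conditional 95% interval 5.21 to 53.4, which covers counting error only). The log2 fold change was 3.62 (SE 0.70, adjusted p = 0.125) by edgeR, with adjusted p = 0.00745 by DESeq2. Without replicate 1 it was 3.85 with adjusted p = 0.0306, and Kcnk16 was then the 1 member called, among 346 genes (2.05%). Kcnk16 passed the filter on low counts only through the vincristine libraries, in which it is high, so these p-values are no independent support for the difference in its reads.

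Of the other 11 tested Kcnk genes, 8 had negative estimates and 3 positive ones. The positive ones were Kcnk9 at 0.56, Kcnk6 at 0.45 and Kcnk3 at 0.09, or 0.09, 0.21 and 0.14 without replicate 1. Kcnk1 was measured at 39.5, 49.4 and 49.3 CPM in the vincristine libraries, against 60.9, 59.0 and 53.5 CPM in the vehicle libraries. The groups did not overlap, and the log2 fold change was -0.33 (SE 0.12, adjusted p = 0.380), with -0.23 without replicate 1. Kcnk18 (TRESK), a calcineurin-regulated leak channel of sensory neurons, had 2.17, 6.94 and 7.67 CPM with vincristine and 7.95, 11.3 and 10.3 CPM with vehicle, without overlap. Its estimate was a log2 fold change of -0.79 (SE 0.41, adjusted p = 0.529), or -0.43 without replicate 1. Kcnk2 (TREK), a channel opened by stretch and heat, averaged 21.9 ± 3.11 CPM in vincristine libraries and 23.9 ± 2.43 CPM in vehicle libraries with a log2 fold change of -0.13 ± 0.14, or -0.20 without replicate 1. Kcnk5 (TASK type), gated by external pH, averaged 26.3 ± 7.56 CPM in vincristine libraries and 27.9 ± 5.79 CPM in vehicle libraries (SD, n = 3 each), and its log2 fold change was -0.09 ± 0.24, or -0.29 without replicate 1.

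The inward rectifiers were the subfamily in which vincristine replicate 1 was most often the highest library: 7 of the 15 members with their highest value there were Kcnj genes. With 13 tested members Kcnj is also the largest of the 7 subfamilies, and this count was not made over all genes. Kcnj2, a strong inward rectifier, had 85.2, 54.8 and 32.9 CPM with vincristine and 72.8, 52.2 and 62.5 CPM with vehicle, and Kcnj10, the channel by which satellite glia buffer potassium, had 50.9, 35.2 and 37.5 CPM with vincristine and 24.5, 31.4 and 41.8 CPM with vehicle. Their groups overlapped, with log2 fold changes of -0.12 ± 0.32 and 0.34 ± 0.22, or -0.52 and 0.16 without replicate 1. The satellite glia markers, which leave out Kcnj10, stood at 0.25, 0.08 and -0.0026 in the vincristine libraries and 0.11, -0.20 and 0.06 in the vehicle libraries. Kcnj8, the pore of ATP-sensitive channels in pericytes, averaged 3.09 ± 0.881 CPM in vincristine libraries and 2.95 ± 0.115 CPM in vehicle libraries, with 0.05 ± 0.24, or -0.19 without replicate 1. Kcnj12 had 16.3, 33.7 and 32.6 CPM with vincristine and 33.4, 43.2 and 36.6 CPM with vehicle and a log2 fold change of -0.45 ± 0.27, or -0.19 without replicate 1, the lowest library.

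Of the G-protein-gated rectifiers, which mediate the inhibitory action of opioids and other transmitters, Kcnj3 was measured at 11.3, 18.3 and 16.5 CPM in the vincristine libraries, against 21.0, 26.8 and 25.9 CPM in the vehicle libraries. The groups did not overlap, and the log2 fold change was -0.67 (SE 0.20, adjusted p = 0.266), or -0.50 without replicate 1. Kcnj6 had the opposite direction, at 2.48, 1.51 and 1.35 CPM in the vincristine libraries, against 0.896, 1.20 and 0.850 CPM in the vehicle libraries. These also did not overlap, with a log2 fold change of 0.82 (SE 0.33, adjusted p = 0.404) at a level near 1 CPM, and 0.54 without replicate 1. Kcnj5 had 3.33, 0.574 and 1.77 CPM with vincristine and 0.896, 0.469 and 1.10 CPM with vehicle and a log2 fold change of 1.15 ± 0.62, or 0.56 without replicate 1, its highest library. The groups overlapped, and Kcnj5 passed the filter on low counts only through the vincristine libraries. Exons of Kcnj3 and of Kcnj6 overlap genes on the opposite strand.

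The 4 HCN genes had no member at an unadjusted p under 0.05. Hcn2, a subunit linked to inflammatory and neuropathic pain in mice, was measured at 37.1, 54.2 and 59.1 CPM in the vincristine libraries, against 49.1, 69.6 and 70.0 CPM in the vehicle libraries. The groups overlapped and replicate 1 was the lowest library, and the log2 fold change was -0.33 (SE 0.21, adjusted p = 0.611). Hcn3 had 8.05, 20.2 and 22.5 CPM with vincristine and 13.9, 20.1 and 17.7 CPM with vehicle, and Hcn4 23.8, 26.2 and 18.2 CPM with vincristine and 22.0, 14.1 and 22.0 CPM with vehicle. Their log2 fold changes were -0.01 ± 0.35 and 0.23 ± 0.22. Without replicate 1 the estimates of Hcn2, Hcn3 and Hcn4 were -0.15, 0.31 and 0.19, so the sign turned for Hcn3. Exons of Hcn3 overlap those of Pklr on the opposite strand.

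The spread among libraries differed between the groups and from that of other genes. The SD of log2 CPM had a median over members of 0.552 in vincristine libraries and 0.265 in vehicle libraries, beside 0.242 and 0.150 over all genes tested. Vincristine replicate 1 was the lowest of the 6 libraries for 56 of the 87 tested members, a count not made over all genes. In this library 65 members lay below their vehicle mean, beside 50.1% of all genes. In it 39 members lay more than 1 log2 unit below their vehicle mean (under -1), against 1 in replicate 2 and 0 in replicate 3, where 5.93%, 0.784% and 1.05% of all genes did. Taken as log2 CPM relative to the vehicle mean, the median member stood at -0.78, -0.17 and -0.10 in the vincristine libraries and -0.19, 0.13 and 0.07 in the vehicle libraries, and for the pan-neuronal markers it was -1.30, -0.13 and 0.06 in the vincristine libraries and -0.25, 0.15 and 0.08 in the vehicle libraries. The Kcnip median was -1.61, -0.41 and -0.31 in the vincristine libraries and -0.09, 0.17 and -0.02 in the vehicle libraries, and the Kcnj median 0.46, -0.15 and -0.20 in the vincristine libraries and -0.10, -0.02 and 0.08 in the vehicle libraries.

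**Figure D4:**
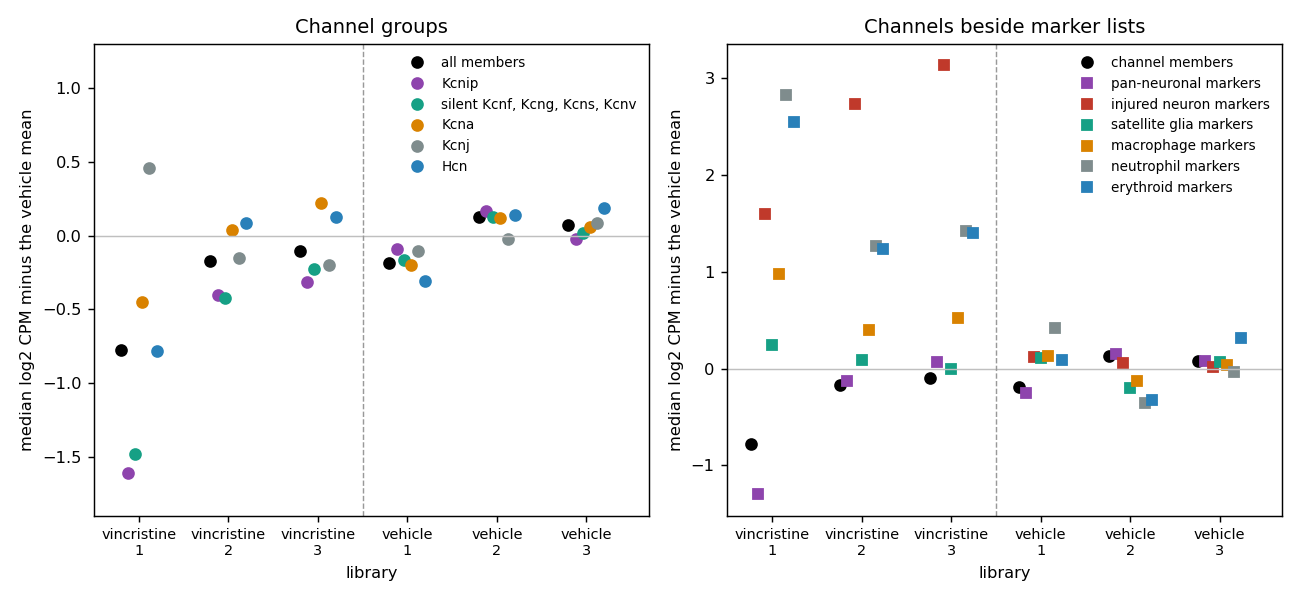
Median over genes of log2 CPM minus the vehicle mean in each library, for channel groups (left panel) and for all members beside marker lists (right panel). Vincristine replicate 1 is at -0.78 for the members and -1.30 for the pan-neuronal markers, and the Kcnj median there is 0.46.

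Partners and regulators of these channels, 41 listed and 38 tested, had 25 negative and 13 positive estimates, a median of -0.16 (-0.09 without replicate 1) and 0 called by edgeR. Of their estimates 65.8% were negative, beside 50.7% of all genes. At an unadjusted p under 0.05 were Dpp10 and Lgi3 with lower values (5.26%, beside 3.27% of all genes) and Lgi4 with higher values (2.63%, beside 8.1%). These were 3 of 38 in all, against a background of 11.4%. Dpp10, an auxiliary subunit of Kcnd channels beside the Kcnip proteins, had 50.9, 143 and 136 CPM with vincristine and 181, 244 and 186 CPM with vehicle and a log2 fold change of -0.88 (SE 0.37, adjusted p = 0.428), or -0.54 without replicate 1. Lgi3, a secreted protein that binds Adam22 and Adam23 at clusters of Kcna channels, had 30.5, 41.1 and 44.5 CPM with vincristine and 45.2, 67.6 and 79.1 CPM with vehicle and a log2 fold change of -0.72 (SE 0.23, adjusted p = 0.314), or -0.58 without replicate 1. Lgi4, a relative that Schwann cells and satellite glia secrete, had 87.9, 109 and 131 CPM with vincristine and 87.2, 83.4 and 69.2 CPM with vehicle and 0.45 (SE 0.17, adjusted p = 0.380), or 0.59 without replicate 1.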

How the data were processed

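Each deposited table lists the authors' raw counts for 1 library, by gene symbol, made with STAR, SAMtools and HTSeq on mm10 (GRCm38), per the submitters' processing notes. Versions, annotation and the strand option are unstated in the labels. An exon overlaps a gene on the opposite strand in 27 members and on the same strand in 2 (Kcnab2 and Kcnk4), so their counts may be shared or lost. Those on the opposite strand include Hcn3, Kcnk1, Kcnn1 and Kcnab3. The counter's summary lines, which name no gene, were left out of every library size and fit: of the alignments tallied, 14.8% to 24.8% lay outside genes, 0.253% to 0.331% were ambiguous and 31.1% to 40.5% were not unique. Reads in genes, 12374331 to 26346304 per library, set the precision, which is lowest for members near the count minimum and in vincristine replicate 1.

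Groups and replicate numbers come from the sample titles; vehicle replicate 3 is numbered 4 in the name of its table, so the replicate block rests on the titles. The test was that of edgeR 4.0.16 (R 4.3.3) on the counts of all genes (filterByExpr, minimum count 10, leaving 16706 genes; TMM; robust quasi-likelihood fit on the treatment group, 4 residual degrees of freedom; two-sided, Benjamini-Hochberg adjustment over all genes, threshold 0.05). CPM use TMM-scaled library sizes, and CPM per kb the merged exon length in GENCODE M21. Values per library on the log2 scale use a prior count of 2. Libraries of a group differed beyond sampling noise (chi-square per degree of freedom of at least 13.3), so none was counted as a copy. Each library pooled 4 animals per the labels, and the chi-square cannot tell a new pool from a new library of the same pool. The steps were tested on simulated data.

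Members and lists were chosen with earlier results of these data known, and a member is named with values when its unadjusted p is under 0.05, when it is the most abundant of its prefix (the 2 most abundant in the 7 subfamilies), when its estimate is among the 3 largest or smallest at a mean of at least 1 CPM, or when it was listed by name. Kcna3, Kcna7, Kcnh8, Kcnip2, Kcnk3, Kcnk6 and Kcnk9 were added after their values were seen. Values of 4 members are not reported here one by one, although these members count in every total, share and median. Alternatives were DESeq2 1.42.0, limma-voom (limma 3.58.1), other scalings, filters and dispersion settings, a replicate block, each library left out and a threshold of 0.1; sample quality weights in limma were added after seeing the data.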

Additional observations from a re-analysis of the deposited data

Results flagged for a closer look

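Kcnh4, an ELK-type subunit known from the brain, was too low for the test and was flagged because it had reads in only 1 group. It had 0, 4 and 10 reads in the vincristine libraries, 14 in all, and 0 reads in each vehicle library. Against an assumed floor of 3 reads over the vehicle group, the ratio of vincristine to vehicle would be 4.61. It was flagged for these same reads, so this ratio is no independent support for a difference. In the edgeR fits that kept this gene, its adjusted p was 0.377 without a low-count filter and 0.383 with a filter of 10 reads.

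The share of alignments outside annotated genes, a summary value that no comparison used, was flagged in vincristine replicate 1. It was 24.8% there, 17.0% and 15.6% in the other vincristine libraries, and 15.3%, 14.8% and 15.2% in the vehicle libraries. Its part in the channel values was not tested. Groups of 3 libraries are too small for the test of single outlying libraries, so none was made.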

How the results depend on the processing

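Counts of calls moved with the setting, and the cause was not tested. Over all genes, 60 by edgeR became 569 with DESeq2, 99 without a low-count filter, 125 at an adjusted p under 0.1 and 476 with sample quality weights, and leaving out 1 library gave 0 to 346: 346, 6 and 18 without vincristine replicate 1, 2 or 3, and 0 without each vehicle library, where 1462, 1063 and 1409 genes had an unadjusted p under 0.05. Members called were 0 in the main test, 3 with DESeq2, 3 with sample quality weights and 0 to 1 with a library left out (Kcnk16 without vincristine replicate 1). Each of these counts above 0 includes Kcnk16, which passed the filter only through the vincristine libraries. Members at an unadjusted p under 0.05 numbered 12, 23 with quality weights and 8 to 24 with a library left out (19 without vincristine replicate 1, 24 without replicate 3). Over all genes the count was 1900 of 16706 in the main test (11.4%) and 2891 of 16706 with quality weights. It was 2200 of 16887 without vincristine replicate 1 and 2357 of 16960 without replicate 3. The replicate numbers did not pair the libraries throughout. Correlations of same-numbered deviations were 0.43, 0.25 and -0.09. The same-numbered vehicle library was the best match for vincristine replicates 1 and 2, whereas vincristine replicate 3 went best with vehicle replicate 2 (0.49). The edgeR fit with the replicate block called 261 genes and 1 member, Kcnh7 (adjusted p = 0.0461). With this block 35 members were at an unadjusted p under 0.05, beside 2573 of 16706 genes.

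The median over members stayed negative throughout, from -0.46 to -0.17 with a library left out. The Kcna median was -0.0048 with limma-voom, -0.057 without a filter, -0.046 with a filter of 10 reads and -0.077 to 0.12 with a library left out. The Kcnj median was 0.0012 with upper quartile scaling, 0.015 with library totals, 0.0074 with the replicate block and -0.21 to 0.17 with a library left out. The Hcn median was 0.064 with quality weights and -0.36 to 0.15 with a library left out, and the Kcnn median -0.35 and -0.63 to -0.27. Kcna1 and Kcnj8 turned with limma-voom (-0.0048 and -0.016), and quality weights turned Hcn3 (0.18), Kcna6 (0.015), Kcnd2 (-0.095), Kcnj8 (-0.14) and Kcnq3 (-0.016).

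With a library left out the log2 fold change crossed 0 for 11 named members. It ran over -0.29 to 0.31 for Hcn3, -0.077 to 0.18 for Kcna1, -0.40 to 0.18 for Kcna6, -0.27 to 0.15 for Kcnc1, -0.17 to 0.80 for Kcnd2 and -0.52 to 0.17 for Kcnj2. It ran over -0.19 to 0.19 for Kcnj8, -0.29 to 0.12 for Kcnk5, -0.40 to 0.0072 for Kcnma1, -0.0060 to 0.21 for Kcnmb4 and -0.35 to 0.28 for Kcnq3. No member names a non-coding transcript, so leaving such members out was not run. Depth limits the members of few reads, and Kcnk16 rests on 57 reads with vincristine and 4 with vehicle.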
